A study of Rattus norvegicus with 26 samples.

Results

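The cytosolic ribosomal protein genes were followed across soleus muscle of 4 groups of rats. Members were the rows of the count table whose symbol is Rpl or Rps with a number, with or without a closing a or x, together with Rplp0, Rplp1, Rplp2 and Rpsa. The rule uses names and no measured value. It found 77 of the 34034 genes of the table, of which 46 encode large-subunit and 31 small-subunit proteins. All 77 were among the 10064 genes tested. Fau and Rack1 also encode ribosomal proteins but carry other names, and were described apart.

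The animals were aged female rats of generation 44 of 2 lines selectively bred for low (LCR) or high (HCR) running capacity. The groups were sedentary LCR (n = 8) and sedentary HCR (n = 8), kept without a wheel, and running LCR (n = 5) and running HCR (n = 5), housed in pairs with a running wheel for more than 5 months. All 4 groups share sex, age class, generation and chow, and the labels give neither the wheel distance of any rat nor a batch or date. Runners form a separate cohort and may share cages, so running, cohort and cage cannot be told apart. For replicate 5 of each running group the library's title names the opposite line. The sample code that closes each of these titles goes with the group instead, with H for HCR and L for LCR. Both libraries were kept under the line given by their genotype and group. Calls of members in the main fit and whole-family medians that rest on them are also given without them. Calls of copy rows, of members with copies added, of neighbouring genes, of markers and of other lists are not.

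Each ribosome of the cytosol joins a small subunit, which decodes the mRNA, to a large subunit, which forms peptide bonds, and needs each core protein in about equal number. In muscle, ribosome content sets much of the capacity for protein synthesis and is known to respond to loading and ageing. Many mRNAs of these proteins start with a terminal oligopyrimidine (TOP) tract at the cap, through which mTORC1 signalling controls their translation more than their abundance. Abundance was what these libraries measured. In bulk muscle, fewer cells of a type and less RNA per cell cannot be told apart.

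Library totals ran from 1099961 to 2523942 counts. Levels are given in CPM, the count scaled to a library total of 1000000. The labelled tissue, a slow muscle, was checked on 8 slow-fibre markers: none was at 0 in any library, and their sum ran from 30600 to 47300 CPM. The fast-fibre markers, of which 9 of 10 were found and none was at 0, summed to 9070 to 14600 CPM in sedentary LCR, 4040 to 12100 in sedentary HCR, 7590 to 14100 in running LCR and 4090 to 6700 in running HCR. The 10 macrophage markers summed to 202 to 335, 311 to 481, 233 to 412 and 269 to 479 CPM in the same order, with Adgre1 at 0 in 2 libraries. Fast-fibre markers thus sat lower, and macrophage markers higher, in sedentary HCR than in sedentary LCR by their medians (7810 against 11200 and 359 against 301 CPM). By gene, 0 of 9 tested fast-fibre markers were called between sedentary lines by edgeR, 3 between running lines and 4 over the averaged lines, and of 9 tested macrophage markers 1, 0 and 1. Of 10 lymphocyte markers Ms4a1 was at 0 in all 26 libraries. In the other 6 lists (endothelial, fibro-adipogenic, satellite, fat, Schwann and smooth muscle cells) 0 markers were called in either state alone, and 1 endothelial and 1 Schwann marker over the averaged lines. The part of these markers in the line differences below was not tested.

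Together the 77 genes took about the same share of counts in every group. Sedentary LCR libraries gave 2.09% ± 0.138 (SD, n = 8; 1.94 to 2.35%) and sedentary HCR libraries 2.14% ± 0.15 (n = 8; 1.83 to 2.29%). Runners gave 2.20% ± 0.195 in LCR and 2.01% ± 0.274 in HCR (n = 5 each). All groups overlapped. The 5 running LCR libraries held 2.38, 2.35, 2.21, 2.17 and 1.89%, and the 5 running HCR libraries 2.42, 2.11, 1.91, 1.95 and 1.68%, in replicate order. In both running groups the lowest share was that of replicate 5, the library whose title names the other line. HCR running 5 also had the lowest total of all, and 9 of its 77 members were above their own mean of the 4 groups, against 72 in LCR sedentary 1.

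**Figure D1:**
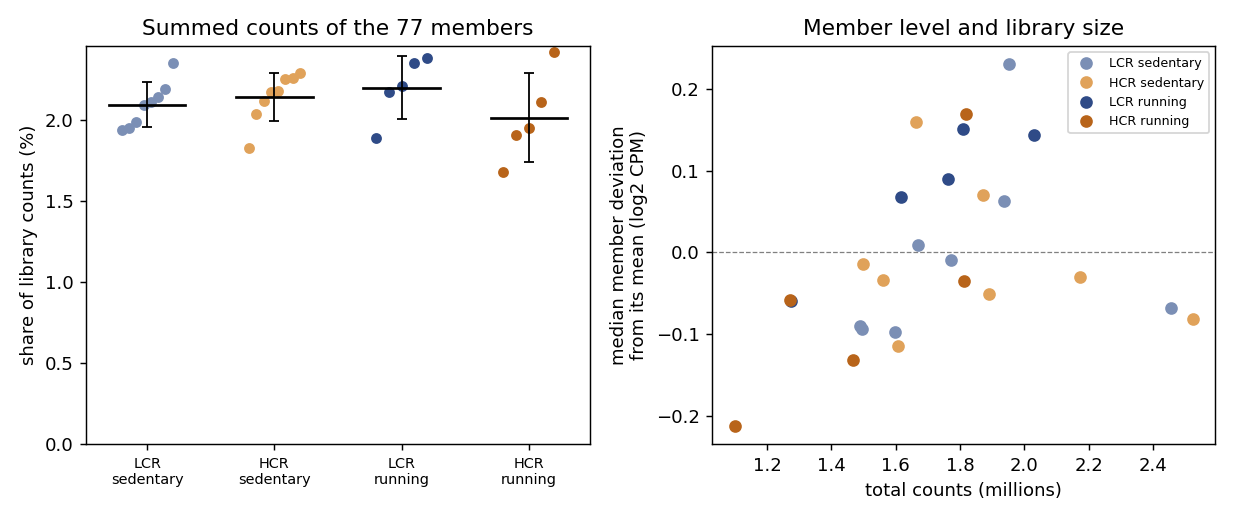
Left, summed counts of the 77 genes as a percentage of all counts of a library, with the mean and SD of each group (n = 8, 8, 5 and 5). Right, the median deviation of the members from their own mean of the 4 groups (log2 CPM) against the library total (M, 1000000 counts). HCR running 5, with the lowest total, has the lowest deviation, -0.21, and LCR sedentary 1 the highest, 0.23.

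Single genes ranged from 5.2 to 879 CPM (mean over 26 libraries), with a median of 215 CPM, and 59 of 77 were above 100 CPM. Reads lay near the 3′ end, so counts are not expected to grow with transcript length, but priming and mapping still differ between genes. The highest levels were those of Rplp2 (879 CPM), an acidic protein of the stalk that recruits elongation factors, Rps12 (682 CPM), a protein of the small-subunit head, and Rpl23a (645 CPM), which sits at the mouth of the exit tunnel. These 3 genes held 10.4% of member counts. The lowest were Rpl35a (5.2 CPM), Rpl39 (12.6 CPM), a tunnel-lining protein, and Rpl32 (12.9 CPM). For the core protein Rpl35a the mean rests on 9.38 counts per library, and rows named as its copies held 46.6 CPM, or 90.0% of the sum. Within groups the coefficient of variation ran from 6.56% to 58.5% for Rpl35a, with a median of 14.5%.

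Such copies are common in this family, since processed pseudogenes of ribosomal proteins fill mammalian genomes and share reads with the source gene. The table held 163 rows named as a numbered copy or pseudogene of 57 members, with 3.59% of the counts of members and copies together. The copy share was 40.4% for Rps14, 36.1% for Rpl32, 28.8% for Rps15a, 27.6% for Rpl36a, 23.7% for Rpl10a and 16.6% for Rps28. It was 1.52% for Rpl19, and no copy row was found for Rpl6. Values of members with a large copy share are uncertain, because counting could split reads between the rows.

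The start sites of the genes that differed by line are shown because the TOP tract is the sequence feature best known for this family. RefSeq windows of GRCr8, a build other than the mRatBN7.2 used for counting, were found for 62 of the 77 members, and those of 5 members called by line are printed. Each window below holds 15 bases before and 15 from the annotated start, on the strand of the gene, and capitals mark a TOP tract, defined here as a C at the start followed by at least 4 bases that are each C or T. The windows are chr20:6390518-6390547 on the plus strand for Rpl10a, chr7:15311319-15311348 on the minus strand for Rps28, chr12:41011676-41011705 on the minus strand for Rpl6, chr10:83519049-83519078 on the plus strand for Rpl19 and chr19:68062499-68062528 on the plus strand for Rpl13.
Rpl10a: gaaaccttctgccttCTTTTCCggttcccg
Rps28: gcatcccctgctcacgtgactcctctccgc
Rpl6: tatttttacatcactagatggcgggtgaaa
Rpl19: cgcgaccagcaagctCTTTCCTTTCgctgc
Rpl13: ctttgcggtgcccgatcctttccgctcggc
The annotated starts of Rpl10a and Rpl19 open a tract of 7 and 10 pyrimidines, and those of Rps28, Rpl6 and Rpl13 do not meet the definition. The start of Rpl13 opens a pyrimidine run whose first base is T. In the window of Rps28 a pyrimidine run led by C begins a few bases after the annotated start. The annotated start of Rpl6 lies just before an ATG. Whether the annotated starts are those used in soleus was not tested, so a missed definition does not show that a tract is absent. Of the 62 members with a window 24 (38.7%) met the definition, against 2.63% of all 33469 windows of the table. Rpl10a and Rpl19, which both carry the tract, went in opposite directions between the lines. In running rats the median log2 difference between lines was -0.12 over the 24 members with the tract and -0.16 over the other 38.

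The sedentary comparison asks how the lines differ in rats kept without a wheel. As a family the ribosomal protein genes were centred near 0: the median log2 fold change of HCR over LCR was -0.005 over 77 members, with 37 above and 40 below 0, beside a median of 0.01 over all 10064 genes. Around this centre 4 members were called by edgeR's quasi-likelihood test at an adjusted p under 0.05: Rpl10a and Rps28 were higher in HCR, Rpl6 and Rpl19 lower. Of all genes tested 2.72% were called in this comparison, 1.57% higher and 1.15% lower, and the count of 4 is not read as particular to the family.

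**Figure D2:**
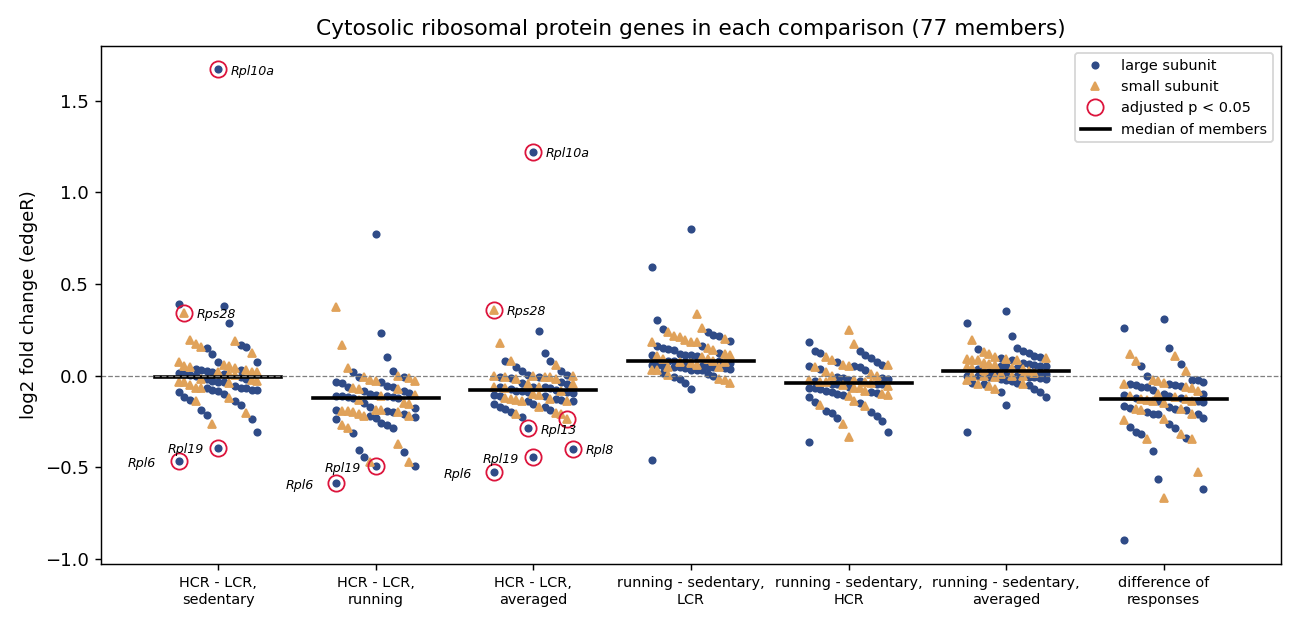
Log2 fold change of each of the 77 members in the 7 comparisons, large-subunit genes as circles and small-subunit genes as triangles. Black bars are member medians and red rings mark an adjusted p under 0.05. Rings appear only in the 3 line comparisons, 4, 2 and 7 of them.

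Rpl10a, a protein of the flexible stalk near the tRNA exit site, had the widest line difference of the family. The 8 sedentary LCR libraries held 66.6, 55.9, 12.1, 12.7, 17.9, 83.9, 16.8 and 19.6 CPM in replicate order, and the 8 sedentary HCR libraries 85.9 (lowest), 121 (median) and 139 CPM (highest). The groups did not overlap. Sedentary LCR itself was split: 5 libraries lay between 12.1 and 19.6 CPM and 3 between 55.9 and 83.9 CPM, with none in between, so its mean of 35.7 ± 28.5 CPM describes no library well. The log2 fold change was 1.67 (SE 0.305, adjusted p = 0.00292).

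The running LCR libraries held 68.6, 63.5, 60.1, 69.3 and 47.1 CPM of Rpl10a, all above the low set of 5 sedentary libraries of the line. The running HCR libraries held 129, 123, 98.9, 113 and 64.5 CPM. The last of these, HCR running 5, is the one whose title names LCR and the only one within the running LCR range. At Rps28, Rpl6 and Rpl19, given below, HCR running 5 lay outside the running LCR range. Between running lines the Rpl10a difference was 0.77 (SE 0.372) and did not pass (adjusted p = 0.578), and it was 0.82 without the 2 libraries of conflicting title (adjusted p = 0.701). When only the 2 running groups were fitted, it passed (0.77, adjusted p = 0.0104), and Rpl19 no longer did (-0.50, adjusted p = 0.0693).

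Its copy row Rpl10a-ps9, a pseudogene by name, moved the same way, from 9.40 to 27.5 CPM in sedentary LCR and 20.1 to 43.2 CPM in sedentary HCR (log2 fold change 0.84, SE 0.201, adjusted p = 0.0163). These ranges overlapped. The 5 sedentary LCR libraries with the least Rpl10a had 9.40, 10, 17.5, 9.59 and 16.5 CPM of the copy, and the other 3 had 25.6, 20.9 and 27.5 CPM. Adding copies to the member left a difference of 1.44 (adjusted p = 0.00335). None of the 10 genes nearest to Rpl10a in the RefSeq order that were tested was called in any line comparison.

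Rps28, a small protein near the mRNA exit channel of the small subunit, was the other member higher in HCR. Sedentary LCR ran from 232 through a median of 308 to 338 CPM, and sedentary HCR from 324 through 396 to 451 CPM. Of the 8 HCR libraries 7 were above every LCR library. The log2 fold change was 0.35 (SE 0.0756, adjusted p = 0.0068). Running libraries repeated the order without overlap, at 346, 317, 314, 285 and 260 CPM in LCR and 484, 385, 373, 373 and 355 CPM in HCR, with a similar difference of 0.37 (SE 0.096) that missed the threshold (adjusted p = 0.0615). The lowest library of each running group was replicate 5, and the groups do not overlap without them either (0.35, adjusted p = 0.227). With the title's line the groups overlapped and the difference was 0.20 (adjusted p = 0.98). The running difference passed in DESeq2 (0.37, adjusted p = 0.0138). In edgeR it passed without LCR sedentary 3 (adjusted p = 0.038) or HCR sedentary 5 (adjusted p = 0.042). The result was unchanged in 9 of 11 other settings and in 24 of 26 fits that left out 1 library.

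The row that RefSeq now names Rps28-ps5 followed the same order of lines. It ran from 36.2 to 58.9 CPM in sedentary LCR and from 66.7 to 108 CPM in sedentary HCR, with no overlap (0.71, SE 0.109, adjusted p = 0.000123). It was also called between the running lines (0.75, SE 0.140, adjusted p = 0.00338). Of the 2 libraries of conflicting title, LCR running 5 held 47.8 CPM of this row and HCR running 5 held 76.4 CPM. Each lay inside the range of the rest of its group. With copies added to Rps28, the running line difference was 0.43 and passed (adjusted p = 0.0229). How reads divide between the gene and this copy was not tested.

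**Figure D3:**
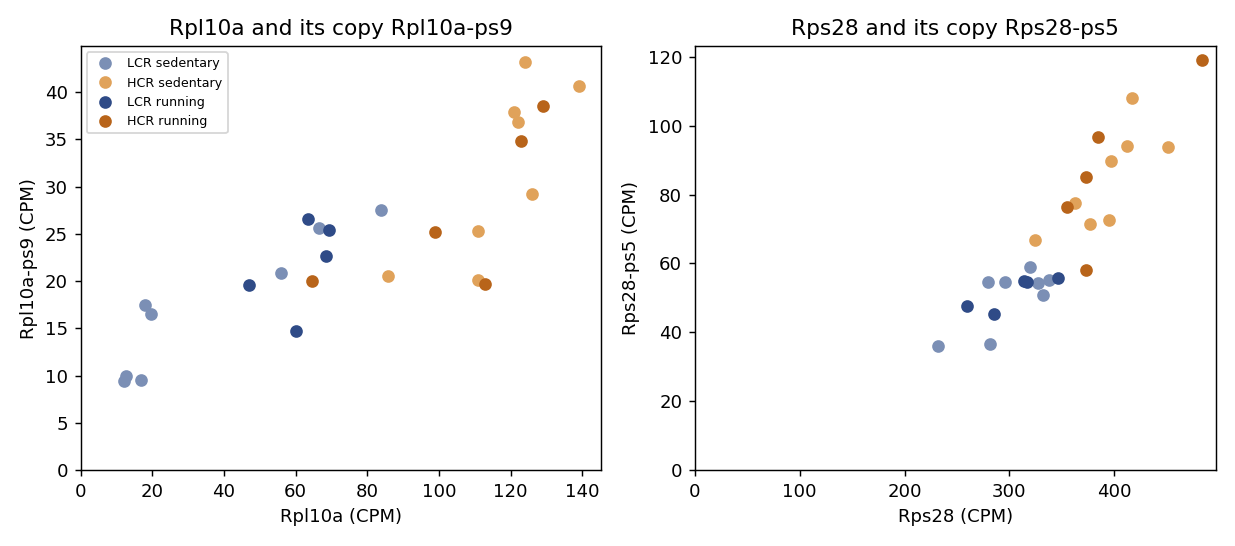
CPM of Rpl10a against its copy Rpl10a-ps9 (left) and of Rps28 against its copy Rps28-ps5 (right), 1 point per library. Sedentary LCR libraries form the lowest points on the left, 5 of them under 20 CPM of Rpl10a. On the right all LCR libraries lie under 60 CPM of the copy, as does HCR running 3 at 58.0 CPM.

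Rpl6 and Rpl19 were the 2 members lower in sedentary HCR, and both belong to the large subunit. Rpl6, a surface protein of that subunit, ran from 165 through 186 to 223 CPM in sedentary LCR and from 116 through 131 to 182 CPM in sedentary HCR. Of the 8 HCR libraries 6 were below every LCR library (log2 fold change -0.47, SE 0.103, adjusted p = 0.00745). Rpl19, whose long helix helps bridge the subunits, ran from 341 through 378 to 442 CPM in LCR and from 230 through 307 to 349 CPM in HCR, with 7 of 8 HCR libraries below every LCR library. Its log2 fold change was -0.39 (SE 0.0885, adjusted p = 0.00854).

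The next members by size did not pass. Rpl17, a tunnel-lining protein, was at 154 ± 23.8 CPM in sedentary LCR and 207 ± 36.5 CPM in sedentary HCR (0.38, SE 0.111, adjusted p = 0.0553). It passed in 4 of 11 other settings, DESeq2 among them (adjusted p = 0.0449). Rpl39 had 10 ± 2.70 and 13.5 ± 2.32 CPM (0.39, adjusted p = 0.255), and Rpl8, near the peptidyl transferase centre, 73.0 ± 16.8 and 60.7 ± 11.6 CPM (-0.31, adjusted p = 0.236).

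The same question was asked among runners. Here 69 of 77 members were below 0 and the median difference of HCR from LCR was -0.12, beside 0.003 over all genes, of which 49.4% were below 0. The shift was of the size of the spread between single libraries, whose member medians had a pooled SD of 0.124 on the log2 scale. That SD is not the error of a difference between groups, and the shift was not tested. The median was -0.12 over large-subunit and -0.15 over small-subunit genes, a difference that was not tested. The median ranged from -0.19 without HCR running 1 to -0.09 without HCR running 5, and was -0.13 without both libraries of conflicting title and -0.08 with the title's line.

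By gene, 2 members were called between the running lines, again Rpl6 and Rpl19, beside 0.626% of all genes (0.348% higher and 0.278% lower). Rpl6 was at 183, 216, 214, 160 and 191 CPM in running LCR and at 152, 165, 97.6, 122 and 105 CPM in running HCR, where 4 of 5 libraries were below every LCR library (-0.59, SE 0.132, adjusted p = 0.0216). Rpl19 was at 397, 396, 379, 363 and 357 CPM against 393, 277, 239, 244 and 197 CPM, with HCR running 1 alone inside the LCR range (-0.49, SE 0.113, adjusted p = 0.0234). Without the 2 libraries of conflicting title neither passed, at -0.53 for Rpl6 (adjusted p = 0.154) and -0.42 for Rpl19 (adjusted p = 0.175), and no member did. Rpl6 also failed without any 1 of LCR running 2, 3 or 5 or HCR running 3 or 5, and Rpl19 without any 1 of LCR running 1, 2, 3 or 5 or HCR running 2, 3, 4 or 5, with adjusted p-values up to 0.113 and 0.103.

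Other large values among runners did not pass. Rpl8 was lower in HCR by -0.49 (adjusted p = 0.26) and the tunnel protein Rpl4 stood at 199 ± 47.2 CPM against 262 ± 14.0 CPM in LCR (-0.40, adjusted p = 0.111). Without HCR running 1, the highest of its group, Rpl4 passed (-0.50, adjusted p = 0.0322), and so it did over the averaged lines (-0.25, adjusted p = 0.0482). Rpl4 was chosen for these 2 comparisons after its values were seen. Rpl32 was higher by 0.23 (adjusted p = 0.847) at 12.0 ± 1.68 against 10.1 ± 2.23 CPM.

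Averaging the sedentary and the running line difference used the same 26 libraries and called 7 members, beside 3.75% of all genes (2.03% higher and 1.72% lower). Rpl10a (1.22, SE 0.241, adjusted p = 0.00342) and Rps28 (0.36, SE 0.0611, adjusted p = 0.000249) were higher in HCR. Rpl6 (-0.53, adjusted p = 0.00011) and Rpl19 (-0.44, adjusted p = 0.000128) were lower. Rpl8 and Rpl13, core proteins of the large subunit, were also lower, though neither was called in sedentary rats or runners alone.

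Rpl8 and Rpl13 overlapped between lines in both states. Rpl8 was at 106, 75.8, 99.8, 87.2 and 58.0 CPM in running LCR and 83.0, 58.0, 61.4, 55.1 and 44.5 CPM in running HCR (averaged difference -0.40, adjusted p = 0.0274). Rpl13 was at 121, 130, 109, 109 and 73.7 CPM against 95.7, 90.0, 73.0, 73.2 and 67.3 CPM (-0.29, adjusted p = 0.0311). Each lost the call when 1 of several running libraries was left out: Rpl8 without LCR running 1 or 3 or HCR running 2 or 5 (adjusted p up to 0.0633), Rpl13 without LCR running 1, 2 or 3 or HCR running 3, 4 or 5 (adjusted p up to 0.0778). Without both libraries of conflicting title 6 of the 7 stayed called, Rpl8 (-0.41, adjusted p = 0.0345) and Rpl13 (-0.32, adjusted p = 0.0219) among them. With line taken from the title instead, only Rpl10a and Rps28 stayed called, 2 of the 7.

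**Figure D4:**
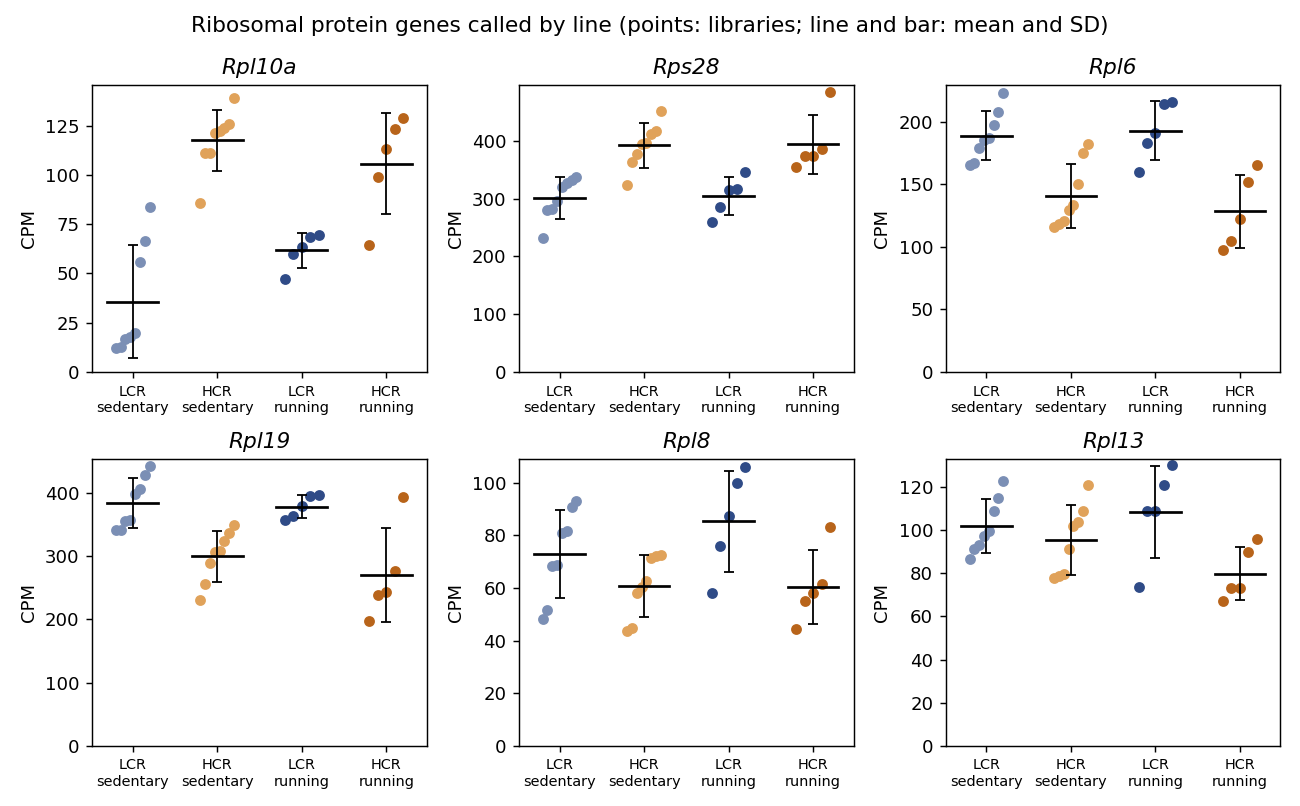
CPM of 6 of the 7 members called between lines, 1 point per library, with group mean and SD (n = 8, 8, 5 and 5). Rpl10a and Rps28 lie higher in HCR and the other 4 lower, and the sedentary LCR points of Rpl10a form a low set of 5 and a high set of 3.

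The 5 called members with a window above lie on 5 different chromosomes. For each of these 5 and for Rpl8, 10 tested neighbours in the RefSeq order were read in the averaged comparison. Calls were 2 near Rps28 (Angptl4 and Timp3), 1 near Rpl19 (Fbxl20), 1 near Rpl6 (Tmem116) and 0 near the other 3. Of all genes 3.75% were called there. Timp3 was also called between sedentary lines (0.43, adjusted p = 0.00463) and Angptl4 between running lines (4.18, adjusted p = 0.0216). These counts were not tested. Across members the sedentary and the running line differences had a Pearson correlation of 0.643 over 77 genes and 0.0547 over the 70 left without the 7 called genes. Genes are not independent replicates and share libraries and their depth, so this is a description. The 7 genes were called from these same line differences, so the drop without them is not read as a result. The sign was shared by 54.5% of members and by 58.2% of all genes.

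Running itself called no member. In LCR, 68 of 77 members were above 0 with a median of 0.08, beside 0.001 over all genes. In HCR, 53 were below 0 with a median of -0.04, beside -0.004. Both medians were below the 0.124 SD of library medians, which is a spread of single libraries and not the error of a group difference. Without both libraries of conflicting title they were 0.11 and -0.006. That of HCR rested on single libraries, at -0.10 without HCR running 1 and -0.004 without HCR running 5. In LCR edgeR called 0 members, beside 0% of all genes, and 9 members (11.7%) had an unadjusted p under 0.05, beside 6.08% of all genes. In HCR it called 0, beside 0.0994%, and 5 members (6.49%) had an unadjusted p under 0.05, beside 12.5%. DESeq2 and voom also called 0 in each.

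Among the largest values of running in LCR, Rpl10a stood at 0.80 (adjusted p = 0.784), Rpl39 at 0.60 (adjusted p = 0.706) and Rps23, a protein of the decoding centre, at 0.33 (adjusted p = 0.907). The value of Rpl10a compares 5 runners with the split sedentary group described above. Rpl39 was at 13.8, 12.3, 19.9, 12.4 and 16.5 CPM in runners and between 6.04 and 15.4 CPM in sedentary LCR. At the lower end were Rpl32 (-0.46, adjusted p = 0.732) and Rpl28 (-0.08). Of the other members that differed by line, Rps28 was at 0.03, Rpl6 at 0.05 and Rpl19 at -0.002.

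In HCR the lowest value was that of Rpl4 (-0.36, SE 0.104, adjusted p = 0.133), at 268, 197, 154, 218 and 157 CPM in runners and between 209 and 307 CPM in sedentary rats. Rps23 (-0.33) and Rpl9 (-0.31) followed, and Rps2 (0.25) and Rpl28 (0.19) were among the highest. Rps23 varied widely, from 30.0 to 116 CPM in HCR runners and from 18.2 to 102 CPM in sedentary LCR. Rps28 stood at 0.06, Rpl6 at -0.07, Rpl19 at -0.10 and Rpl10a at -0.10, and the last was 0.003 without the 2 libraries of conflicting title.

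The average of both running responses called 0 members beside 0.378% of all genes, and 6 members (7.79%) had an unadjusted p under 0.05 beside 12.7%. Rpl10a (0.35), Rpl39 (0.29) and Rpl29 (0.22) were the highest and Rpl32 (-0.30), Rpl4 (-0.16) and Rpl5 (-0.11), a partner of the smallest ribosomal RNA, the lowest. Rps28 was at 0.05, Rpl19 at -0.05 and Rpl6 at -0.01.

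Whether running acted differently in the lines was asked by the difference of the responses. Of the 77 members 47 were above 0 with running in LCR and below 0 in HCR, and 35.1% had the same sign in both, beside 56.3% of all genes. The difference of responses had a median of -0.13 with 68 of 77 below 0, beside -0.002 over all genes, and was -0.18 without HCR running 1 and -0.10 without HCR sedentary 5. Without both libraries of conflicting title it was -0.11, and with line taken from the title -0.06. EdgeR called 0 members, as it did of all genes (0%), and 9 members (11.7%) had an unadjusted p under 0.05 beside 5.88% of all genes. No gene was thus shown to respond differently between lines. Rpl10a (-0.90, adjusted p = 0.852), Rps23 (-0.67) and Rpl39 (-0.62) had the lowest values and Rpl32 (0.31), Rpl28 (0.26) and Rpl26 (0.15) the highest. Rps28 was at 0.03, Rpl6 at -0.12 and Rpl19 at -0.10.

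**Figure D5:**
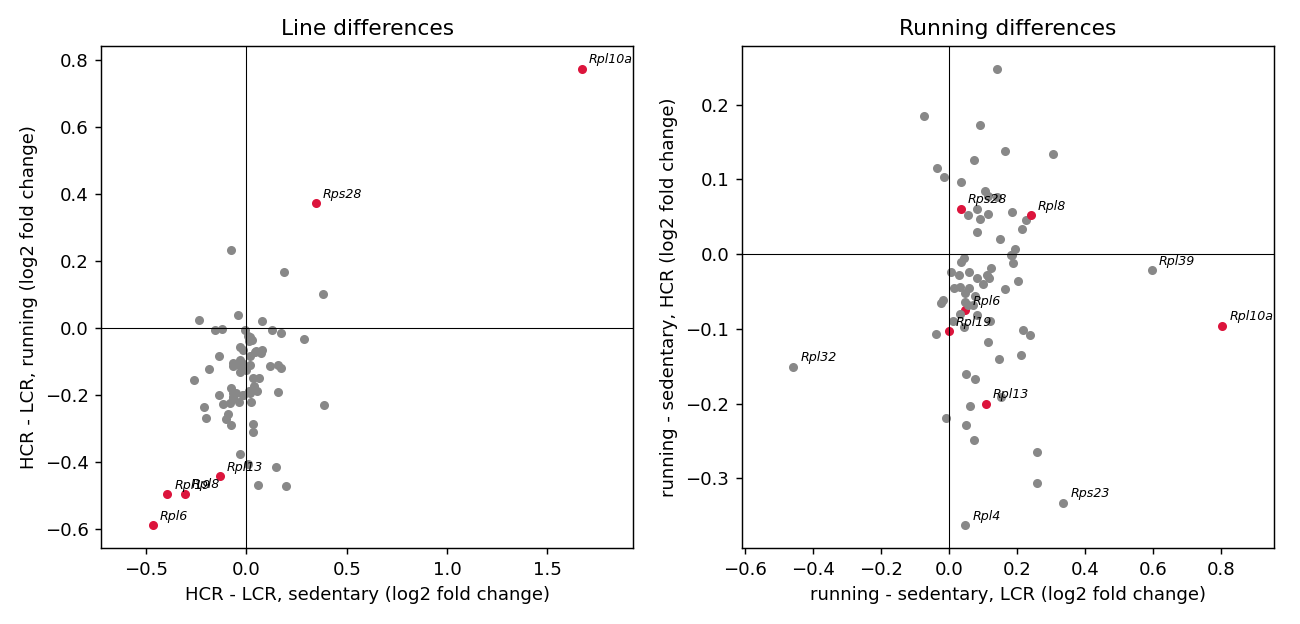
Left, the line difference among runners against that among sedentary rats. Right, the running difference in HCR against that in LCR, both as log2 fold change, 1 point per member. Red marks 6 of the 7 members called by line. On the left most grey points lie below the horizontal axis (69 of all 77 points), and on the right 47 of the 77 lie at the lower right, above 0 in LCR and below 0 in HCR.

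Paralogues gave a further view of the family. Rpl3l, the striated-muscle form of the core protein Rpl3, was more abundant than Rpl3 in group means of all 4 groups. Rpl3 and Rpl3l were at 191 ± 37.6 and 430 ± 47.4 CPM in sedentary LCR and at 239 ± 43.8 and 363 ± 30.6 CPM in sedentary HCR. Rpl3 thus stood higher and Rpl3l lower in HCR, at 0.29 (adjusted p = 0.104) and -0.28 (adjusted p = 0.0671), and neither passed in edgeR. With all libraries Rpl3l passed in DESeq2 (adjusted p = 0.043) and voom (adjusted p = 0.0256), and Rpl3 in voom (adjusted p = 0.0425). The result was unchanged in 9 of 11 other settings for Rpl3l and in 10 of 11 for Rpl3. The ratio of Rpl3 to Rpl3l was 0.456 ± 0.147 in sedentary LCR, 0.666 ± 0.166 in sedentary HCR, 0.488 ± 0.120 in running LCR and 0.507 ± 0.0724 in running HCR, with overlapping ranges. Without LCR sedentary 5, which had the highest Rpl3 of its group, both passed (adjusted p = 0.0299 and 0.00932).

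The other pairs did not differ by line beyond the threshold. Rps27l, Rpl22l1 and Rpl7l1 stood at 55.1 ± 14.1, 19.5 ± 6.00 and 42.9 ± 4.69 CPM in sedentary LCR, below Rps27 (268 ± 23.3), Rpl22 (34.7 ± 6.41) and Rpl7 (460 ± 41.3). Their sedentary line differences were 0.17, 0.16 and 0.13 (adjusted p = 0.568, 0.719 and 0.549). Rpl39l was in the table but too low to be tested. Fau and Rack1 were called by edgeR in no comparison, with 0 at an unadjusted p under 0.05, and stood at 0.03 and -0.04 between sedentary lines.

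Translation factors and mTORC1 genes were read from lists beside the members. A list of 10 genes tied to elongation held factors that bring tRNAs to the ribosome or move it along, and also the kinase Eef2k, which inhibits elongation, the synthetase-complex protein Eef1e1, and Tpt1, which is not an elongation factor. EdgeR called 0 of them in any comparison. For the averaged lines 3 had an unadjusted p under 0.05 (30%, beside 15.7% of all genes) and 10 of 10 lay below 0 with a median of -0.11, beside 49.3% of all genes. The smallest p-values were those of Tpt1 (-0.17, adjusted p = 0.208) and the exchange factor subunit Eef1b2 (-0.16, adjusted p = 0.214). Of 37 initiation factors 1 was called between sedentary lines, 2.7% beside 2.72% of all genes: Eif4g3, a scaffold of the cap-binding complex, was lower in sedentary HCR, at 158 ± 13.6 against 192 ± 14.5 CPM (-0.32, SE 0.0792, adjusted p = 0.0215). In the averaged lines 2 of 29 genes around mTORC1 and S6 kinase were called, beside 3.75% of all genes, and nothing is read from the count. Igf1r, the IGF-1 receptor, was higher in HCR (0.38, adjusted p = 0.00877), and Mlst8, a subunit of mTORC1, lower (-0.34, adjusted p = 0.041).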

How the data were processed

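Poly(A)-primed 3′ libraries were made from soleus RNA of 26 rats and read from 1 end, per the labels. What the authors deposited are raw counts by gene: whole numbers with unequal library totals. The submitters' processing notes name the build mRatBN7.2 and, with no version, STAR, featureCounts, cutadapt and UMI-tools. Strand use and collapse of molecular identifiers are not given in the sources used here. No column was without a sample (0 columns).

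Libraries were grouped by the genotype and group labels. All 26 entered 1 fit of 4 groups in edgeR 4.0.16 (R 4.3.3) with TMM factors, filterByExpr, robust quasi-likelihood tests and Benjamini-Hochberg adjustment over 10064 genes at 0.05. There were 7 contrasts. HCR was set against LCR in sedentary rats, among runners and averaged. Running was set against sedentary in LCR, in HCR and averaged, and the last contrast was the difference of these responses. A log2 fold change is HCR over LCR or running over sedentary. CPM are counts scaled to a library total of 1000000. Values are group mean ± SD. P-values set a difference against the spread between these libraries, and cages that runners may share were not modelled. The fit was tested on simulated counts. Alternatives were DESeq2 1.42.0, voom (limma 3.58.1), other scalings and filters, the title's line, a replicate block and leaving out each library.

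Members and lists were chosen with earlier results of these data known. Members named were those called in any contrast, Rpl10a, Rps28, Rpl6 and Rpl19 throughout, the 3 largest and 3 smallest changes per contrast, the 3 highest and 3 lowest levels, and the paralogue pairs. Some genes that this rule or a list would name are not reported here. Of other lists, called genes or those of smallest p were named. Marker lists of 10 cell types were measured. No duplicates were seen within groups: over 76 pairs of libraries of the same group chi-square per degree of freedom was at least 2.09. Pairs across groups were not compared.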

Additional observations from a re-analysis of the deposited data

Results flagged for a closer look

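Of 68 sets of library values (a named gene, the Rpl3 to Rpl3l ratio or the member share in 1 group), 7 held a library set apart from the rest of its group by the gap to its neighbour. Chance flags about 1 in 20 such sets. Rpl32 was lowest in replicate 5 of both running groups, at 9.09 CPM in HCR running 5 and 6.27 CPM in LCR running 5, the libraries whose titles name the other line. In HCR running 1, Rps28 stood at 484 CPM and Rpl3 at 264 CPM, the highest of the group. In LCR sedentary 5, Rpl3 stood at 271 CPM and the ratio of Rpl3 to Rpl3l at 0.797. Rpl5 stood at 529 CPM in LCR sedentary 1. Causes were not tested.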

How the results depend on the processing

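The 4 calls between sedentary lines stood at 3 to 6 calls over 11 settings and at 4 to 5 when any 1 library was left out. With the line named in the title, 3 remained, since Rpl6 missed the threshold (-0.47, adjusted p = 0.053). Between running lines the count of calls was 0 with the title's line, 0 without both libraries of conflicting title, and 0 to 3 when any 1 library was left out. For the averaged lines it was 2 with the title's line. The 4 contrasts of running gave 0 member calls throughout. Of all genes tested, edgeR called 63 between running lines, 0 with the title's line and 35 without both libraries of conflicting title. Which label of these libraries is right was not tested. The member share with mitochondrially encoded genes taken out of the total was 2.29% in sedentary LCR, 2.36% in sedentary HCR, 2.41% in running LCR and 2.23% in running HCR.

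Values near 0 changed sign, none of them called. With the title's line Rpl6 was at -0.0873 for running in LCR, 0.11 for running in HCR, 0.0109 for both responses averaged and 0.20 for their difference, Rps28 at -0.0169 for running in HCR and -0.14 for the difference, and Rpl19 at 0.0667 for running in HCR and 0.20 for the difference. Without both libraries of conflicting title Rpl10a was at 0.00333 for running in HCR. Leaving out 1 library at a time gave, for running in LCR, Rps28 from -0.0135 to 0.05996, Rpl19 from -0.0252 to 0.031 and Rpl28 from -0.16 to 0.012. For running in HCR it gave Rpl10a from -0.14 to 0.00573 and Rpl6 from -0.17 to 0.0053. It gave Rpl6 from -0.0597 to 0.0262 for running averaged, and Rps28 from -0.0226 to 0.0767 for the difference of responses.

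Replicate numbers did not pair the samples: over 23 same-number pairs the correlation of deviations ran from -0.22 to 0.26 with a median of 0.01, and 1 pair was best with its own number. With the replicate block 5, 2 and 7 members were called in the 3 line comparisons, and Rpl6 for running averaged was at 0.00519. Copies were matched by symbol, chosen after seeing the data, since the planned match by reference description was not run. Depth limits Rpl35a, Rpl39 and Rpl32, under 20 CPM each.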
